A study of Mus musculus with 2 samples.

Results

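Germ cells sorted from XY mouse foetal gonads that had been cultured for 24 h with a MEK1/2 inhibitor were compared directly with germ cells from XY gonads cultured for 24 h with an FGF receptor inhibitor. The comparison takes 8 of the 40 germ cell libraries, namely the MEKi libraries labelled replicates 1, 2, 4 and 6 and the FGFRi libraries labelled replicates 1, 3, 4 and 5. The MEK1/2 inhibitor was PD0325901/Mirdametinib (MEKi), the FGF receptor inhibitor was BGJ398/Infigratinib (FGFRi), and each was used at 500 nM. The 8 libraries were chosen by their column names and not by any measured value.

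All gonads were taken at E12.5 (embryonic days from the mating plug), after the sex of the somatic cells is set, from Swiss females mated with 129T2svJ males that carry an Oct4-eGFP reporter. Gonads were cultured with the mesonephros attached, which was removed before sorting. The 4 XY libraries cultured for 24 h with the vehicle DMSO (replicates 2, 3, 4 and 5) gave the background, and 4 MEKi and 4 FGFRi libraries cultured for 72 h gave the same comparison at a later time. Each library held several gonads dissociated together, so the spread between libraries is that between pools of embryos. The inhibitors were in the medium of the whole gonad, and the somatic cells around the germ cells were exposed to them as well. There were 4 libraries in each group. A lower value in a bulk library can come from fewer cells of a kind or from less RNA per cell, and these cannot be told apart.

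The inhibitors were in different library pools. The 24 h MEKi and 24 h DMSO libraries were made in pool 1, and the 24 h FGFRi libraries and all 72 h libraries in pool 2. The inhibitor and the pool therefore cannot be told apart in the direct comparison at 24 h, nor in that of FGFRi with DMSO at 24 h, while MEKi v DMSO at 24 h and MEKi v FGFRi at 72 h each lie within a pool. Total counts per library ran from 1938080 to 2350963 for MEKi, from 1264805 to 1970069 for FGFRi and from 2044852 to 3781288 for DMSO. From 4 Y-linked genes in the XX libraries, 2.22% of the mean level of pool 1 and 3.1% of that of pool 2 was estimated to be read in every library of the pool, and this carry-over is given beside the genes whose results turn on it.

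FGF receptors are receptor tyrosine kinases that pass their signal through RAS and RAF to MEK1/2 and on to ERK1/2, which switches on genes of the DUSP, SPRY and ETV families that also damp or extend the signal. MEK1/2 lies on a path that many other receptors also signal through. At E12.5 XY germ cells are about to leave the cell cycle and to start the male programme, in which *Nanos2* is a central RNA-binding regulator, whereas XX germ cells of this age start meiosis under *Stra8*.

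At 24 h few genes passed the test between the inhibitors, which asks for a change beyond 1.5-fold. Of 15252 genes tested, 16 were called DEGs (limma treat against a 1.5-fold change, Benjamini-Hochberg FDR under 0.05). The count depends on this test, and was 435 when limma's eBayes tested for any change and the observed fold had to reach 1.5. With MEKi 2 genes were higher (0.0131% of genes tested), *Stra8* and *Lgals3*, and 14 were lower (0.0918%), namely *Atp6v0a4*, *Arid5a*, *Tmem213*, *Ptk2b*, *Nanos2*, *Spocd1*, *Dgka*, *Pdzk1*, *Abca1*, *Synj2*, *Mylip*, *Svopl*, *Sohlh1* and the small nucleolar RNA *Gm24988*. For each of the 16 the 4 MEKi libraries did not overlap the 4 FGFRi libraries. Over all genes tested, 5.26% were higher and 4.48% lower with MEKi without overlap, and 377 genes had an unadjusted p under 0.05. The median log2 fold change of all genes was -0.0015. The 95% interval of the fold change lay within 2-fold in either direction for 9438 genes (61.9%), and 1109 genes had a fitted log2 fold change beyond 1 in either direction.

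Each inhibitor was also compared with the same 4 DMSO libraries, so these 2 comparisons are not independent of each other and their values are given side by side. MEKi v DMSO had 25 DEGs (0.164%) and FGFRi v DMSO had 40 (0.262%). Of the 16 genes, 5 were DEGs in MEKi v DMSO (*Stra8*, *Nanos2*, *Dgka*, *Lgals3* and *Sohlh1*), 5 in FGFRi v DMSO (*Atp6v0a4*, *Arid5a*, *Tmem213*, *Abca1* and *Svopl*), 6 in neither and 0 in both.

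How firmly a gene was called differed among the 16. *Stra8*, *Atp6v0a4*, *Arid5a* and *Tmem213* were DEGs with each of the 8 libraries left out in turn, and *Nanos2* and *Ptk2b* were DEGs in 7 of these 8 fits. *Spocd1* was called in 5 of the 8, and *Lgals3*, *Abca1*, *Dgka*, *Pdzk1*, *Synj2* and *Sohlh1* in 4. *Mylip* was called in 3, *Svopl* in 2 and *Gm24988* in 1. In the fits that lost the call the highest FDR was 0.0646 for *Dgka* (without MEKi replicate 2), 0.137 for *Pdzk1* (without MEKi replicate 1), 0.151 for both *Abca1* and *Mylip* (without MEKi replicate 6), 0.114 for *Lgals3* (without FGFRi replicate 5) and 0.231 for *Gm24988* (without FGFRi replicate 3). For *Svopl* it was 0.143 (without MEKi replicate 2) and for *Sohlh1* 0.16 (without MEKi replicate 6). DESeq2 did not call *Lgals3*, *Pdzk1*, *Synj2*, *Svopl* and *Gm24988*.

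**Figure D1:**
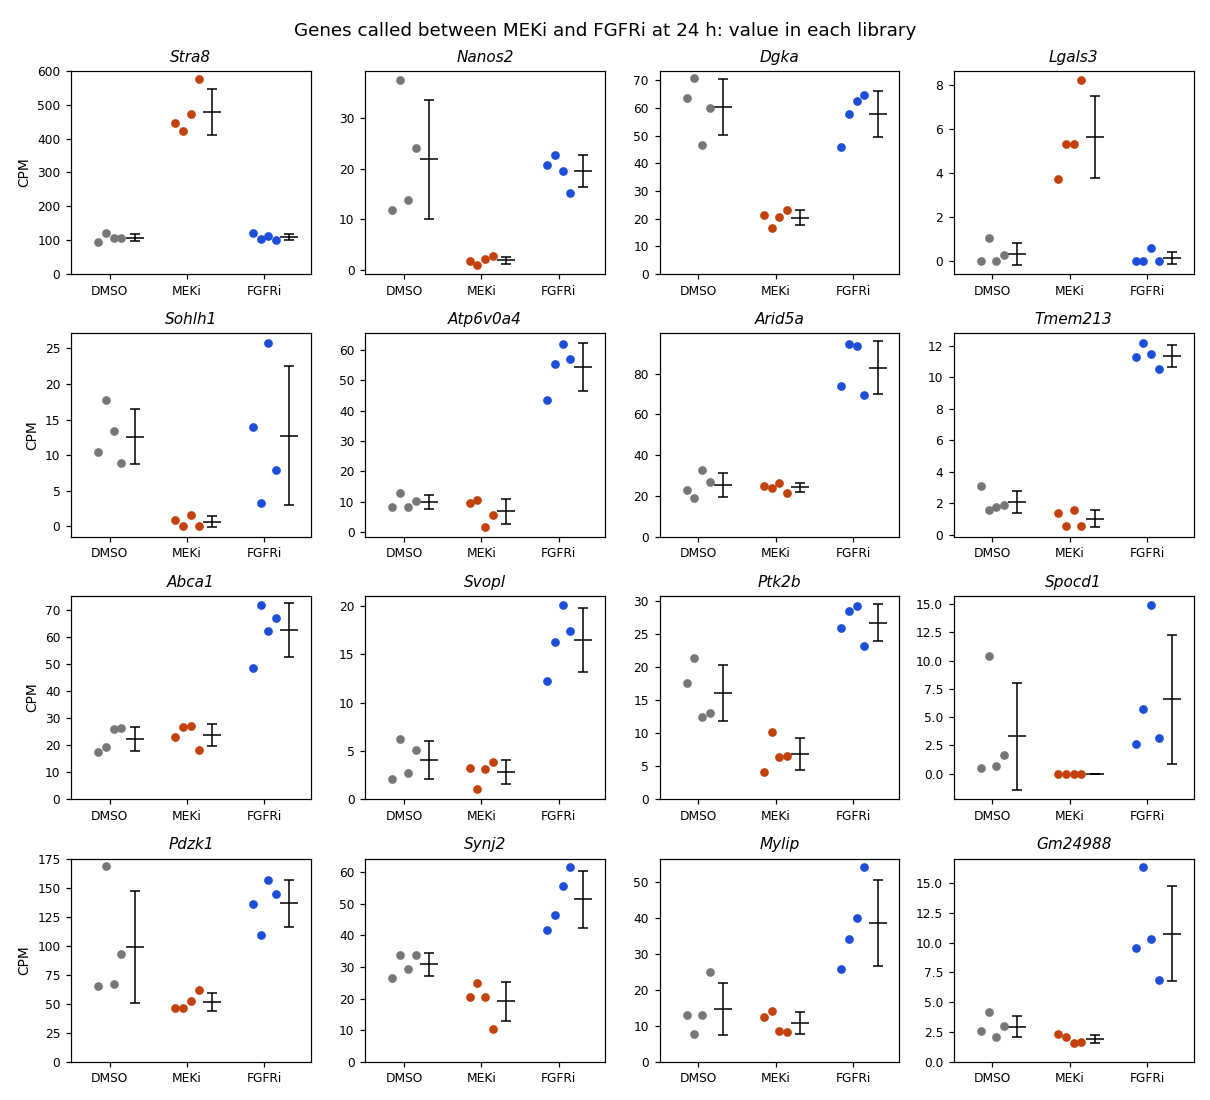
Level in CPM (counts relative to library size, vertical axes) of the 16 genes that differed between MEKi and FGFRi at 24 h, with 1 point for each of the 4 DMSO, MEKi and FGFRi libraries and a bar at the mean. *Stra8* and *Lgals3* were higher with MEKi and the other 14 lower, and in no panel did the MEKi and FGFRi points overlap.

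The genes that changed against DMSO with MEKi are described first. *Stra8*, which is switched on by retinoic acid and is required for germ cells to enter meiotic prophase, had the lowest FDR of all genes tested. Its level, given throughout as CPM (counts relative to the TMM-scaled library size), was 447, 421, 472 and 576 in the MEKi libraries, 122, 103, 111 and 100 CPM in the FGFRi libraries and 94.4, 120, 106 and 106 CPM in the DMSO libraries. The FGFRi and DMSO libraries overlapped, and each MEKi library was above both. The fitted level with MEKi was 4.40-fold that with FGFRi (log2 fold change 2.14, SE 0.179, FDR 5.8e-08). Against DMSO the log2 fold change was 2.19 with MEKi (FDR 2.07e-09) and 0.05 with FGFRi (FDR 1).

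*Nanos2* was measured in the opposite direction. Its level was 1.86, 1.06, 2.12 and 2.74 CPM with MEKi, 20.8, 22.8, 19.5 and 15.3 CPM with FGFRi and 11.9, 37.5, 13.8 and 24.1 CPM with DMSO. The DMSO libraries were spread more widely than the FGFRi libraries and enclosed them. On the log2 scale MEKi v FGFRi was -3.18 (SE 0.513, FDR 0.00649). Against DMSO it was -3.20 with MEKi (FDR 0.00152) and -0.03 with FGFRi (FDR 1). Without MEKi replicate 1 the direct difference was -3.17 with an FDR of 0.0623.

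The promoters of *Stra8* and *Nanos2*, the 2 genes of opposite direction at the decision between meiosis and the male programme, are given from 250 bases before to 50 after the transcription start (RefSeq, GRCm38.p6), 5′ to 3′ on the strand of the gene. Capitals mark AGGTCA, a motif of nuclear receptors such as those for retinoic acid, or its reverse complement TGACCT. It was searched on both strands and 16.3% of the 32851 RefSeq promoter windows held it. *Stra8* lies at chr6:34920698-34920997 on the plus strand and holds it at -194 and -38 from the start. *Nanos2* lies at chr7:18987274-18987573 on the plus strand and holds it at 21. These matches are a description and no binding was measured.
Stra8: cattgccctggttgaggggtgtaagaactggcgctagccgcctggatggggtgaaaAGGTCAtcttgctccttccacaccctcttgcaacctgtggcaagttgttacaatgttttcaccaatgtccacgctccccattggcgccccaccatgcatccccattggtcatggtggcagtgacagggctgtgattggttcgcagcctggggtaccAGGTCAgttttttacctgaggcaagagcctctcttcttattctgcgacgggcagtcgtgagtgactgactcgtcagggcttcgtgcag
Nanos2: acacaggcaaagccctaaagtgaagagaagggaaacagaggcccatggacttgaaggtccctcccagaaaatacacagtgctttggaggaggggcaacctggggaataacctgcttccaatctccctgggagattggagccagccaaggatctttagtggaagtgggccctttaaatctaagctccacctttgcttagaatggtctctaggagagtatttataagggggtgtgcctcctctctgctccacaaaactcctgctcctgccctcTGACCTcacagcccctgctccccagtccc

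*Dgka* encodes a diacylglycerol kinase, which removes the lipid messenger diacylglycerol. Its level was 21.4, 16.5, 20.6 and 23 CPM with MEKi, 46, 57.8, 62.6 and 64.9 CPM with FGFRi and 63.8, 70.8, 46.8 and 60.1 CPM with DMSO. The FGFRi and DMSO libraries covered nearly the same range, and the MEKi libraries were below it. The log2 fold change was -1.50 (SE 0.189, FDR 0.0103) against FGFRi and -1.52 (FDR 0.00184) against DMSO, and FGFRi v DMSO was -0.02.

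*Sohlh1*, a germ cell transcription factor that is needed for the differentiation of spermatogonia and oocytes, was at 0.929, 0, 1.59 and 0 CPM with MEKi. It was at 13.9, 3.26, 25.8 and 7.91 CPM with FGFRi and at 10.4, 17.7, 13.4 and 8.93 CPM with DMSO. The FGFRi libraries were the most uneven of the 3 groups, and replicate 3 was the lowest of them. The log2 fold change was -4.00 (SE 0.753, FDR 0.0165) against FGFRi and -4.06 (FDR 0.0058) against DMSO. *Sohlh1* was high in the 72 h libraries of pool 2, and 4.98 of its mean of 12.7 CPM with FGFRi was estimated as carry-over. With the carry-over taken out the direct log2 fold change was -2.62 (FDR 1), and without FGFRi replicate 4 it was -3.46 (FDR 0.0818).

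*Lgals3*, which encodes the sugar-binding protein galectin-3, was at 3.71, 5.31, 5.29 and 8.21 CPM with MEKi, at 0, 0, 0.574 and 0 CPM with FGFRi and at 0, 1.04, 0 and 0.271 CPM with DMSO. These levels rest on 8, 10, 10 and 15 counts with MEKi and on 1 count in all with FGFRi, of whose mean of 0.143 CPM 0.0467 CPM was estimated as carry-over (FDR 0.0155 with it taken out). The fitted log2 fold change was 3.62 (SE 0.637, FDR 0.0103) against FGFRi and 3.90 (FDR 0.00383) against DMSO. Galectin-3 is also a product of macrophages. Over the 4 libraries the macrophage markers *Adgre1* had 1 count with MEKi and 0 with FGFRi, *Csf1r* 6 and 6, and *C1qa* 1 and 1. The leukocyte marker *Ptprc* had 4 and 0. The whole blood marker list took 0.031% of counts with MEKi and 0.00751% with FGFRi, nearly all of them from globin genes of red cells. The part of macrophages in the level of *Lgals3* was not tested.

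**Figure D2:**
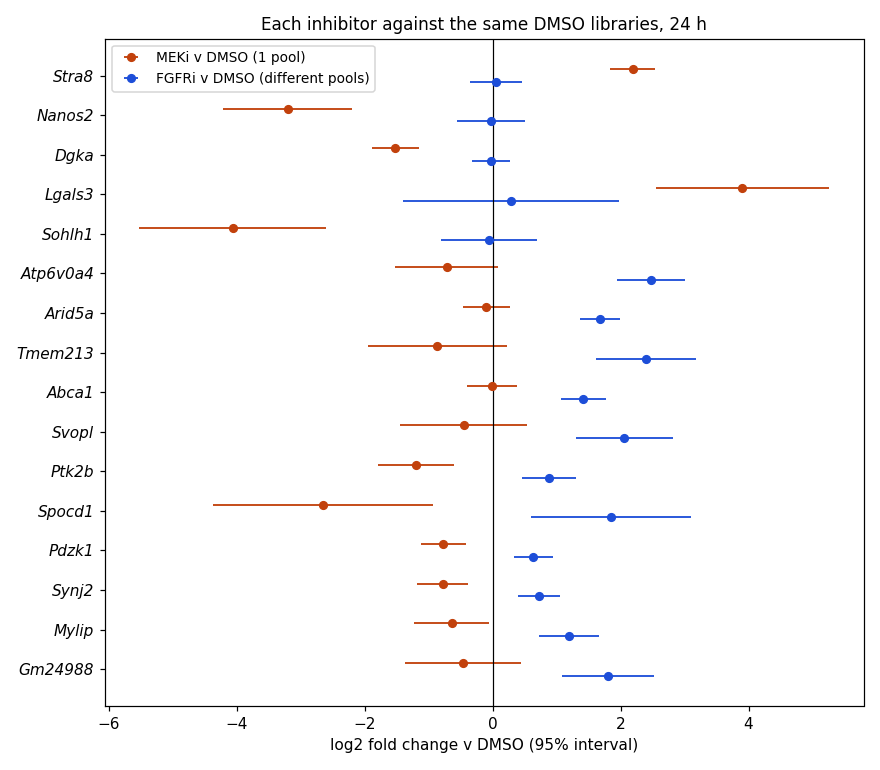
Log2 fold change against the same 4 DMSO libraries at 24 h (horizontal axis, bars are 95% intervals) for MEKi, within pool 1, and FGFRi, across the pools, for the 16 genes. *Stra8* (2.19) and *Nanos2* (-3.20) moved with MEKi while FGFRi was at 0.05 and -0.03, and *Arid5a* (1.68) moved with FGFRi while MEKi was at -0.10.

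The 5 genes that changed against DMSO with FGFRi were each higher with FGFRi, and in each the MEKi and DMSO libraries overlapped. Because the FGFRi libraries were in another pool than the DMSO and MEKi libraries, the inhibitor and the pool cannot be told apart here. *Arid5a*, an RNA-binding protein that stabilises certain mRNAs, was at 73.8, 94.5, 93.5 and 69.6 CPM with FGFRi, at 24.6, 23.9, 26.5 and 21.4 CPM with MEKi and at 22.8, 18.8, 32.7 and 26.8 CPM with DMSO. Each FGFRi library was above all 8 others. MEKi v FGFRi gave a log2 fold change of -1.77 (SE 0.165, FDR 4.31e-06), and FGFRi v DMSO was 1.68 (FDR 3.04e-06), while MEKi v DMSO was -0.10.

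*Abca1*, the transporter that moves cholesterol out of cells onto lipoproteins and a target of the liver X receptors (LXR), was at 48.6, 71.7, 62 and 67 CPM with FGFRi, at 22.8, 26.6, 27 and 18.1 CPM with MEKi and at 17.6, 19.3, 26.1 and 26.2 CPM with DMSO. The MEKi and DMSO libraries overlapped, and the FGFRi libraries were above both. As a log2 fold change MEKi v FGFRi was -1.43 (SE 0.177, FDR 0.0103), FGFRi v DMSO was 1.42 (FDR 0.00432) and MEKi v DMSO was -0.01.

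The other 3 genes are neighbours on mouse chromosome 6 (GRCm39). *Atp6v0a4*, at 38025418 to 38101521 on the minus strand, encodes a subunit of the vacuolar proton pump best known from acid-secreting cells of the kidney. *Tmem213*, a transmembrane protein gene at 38086190 to 38092744, lies inside *Atp6v0a4* on the plus strand. *Svopl*, which is named for its likeness to a synaptic vesicle transporter, lies at 37960674 to 38023931 on the minus strand, 1486 bases from *Atp6v0a4*, with 0 genes of the table between them. The study's counting took the strand of the reads into account.

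*Atp6v0a4* was at 43.4, 55.4, 62 and 57 CPM with FGFRi, at 9.75, 10.6, 1.59 and 5.48 CPM with MEKi and at 8.3, 13, 8.25 and 10.3 CPM with DMSO. *Tmem213* was at 11.3, 12.2, 11.5 and 10.5 CPM with FGFRi, at 1.39, 0.531, 1.59 and 0.548 CPM with MEKi and at 3.11, 1.56, 1.72 and 1.89 CPM with DMSO. *Svopl* was at 12.2, 16.3, 20.1 and 17.4 CPM with FGFRi, at 3.25, 1.06, 3.17 and 3.83 CPM with MEKi and at 2.07, 6.25, 2.75 and 5.14 CPM with DMSO. In all 3 genes each FGFRi library was above every MEKi and DMSO library. On the log2 scale MEKi v FGFRi was -3.20 for *Atp6v0a4* (SE 0.349, FDR 2.45e-06), -3.27 for *Tmem213* (SE 0.466, FDR 0.000792) and -2.51 for *Svopl* (SE 0.424, FDR 0.0165). FGFRi v DMSO was 2.48 for *Atp6v0a4* (FDR 2.34e-06), 2.40 for *Tmem213* (FDR 0.00816) and 2.06 for *Svopl* (FDR 0.0497), and MEKi v DMSO was -0.72, -0.86 and -0.45.

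Within 500 kb of *Atp6v0a4*, 12 genes were tested and these 3 were the DEGs. *D630045J12Rik*, which shares 1413 bases with *Atp6v0a4* on the same strand, had a log2 fold change of 0.14, and *Trim24* on the far side of *Svopl* had 0.14. The remaining neighbours ran from -0.34 (*Zc3hav1*) to 0.37 (*Ybx1-ps2*), each with an FDR of 1.

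**Figure D3:**
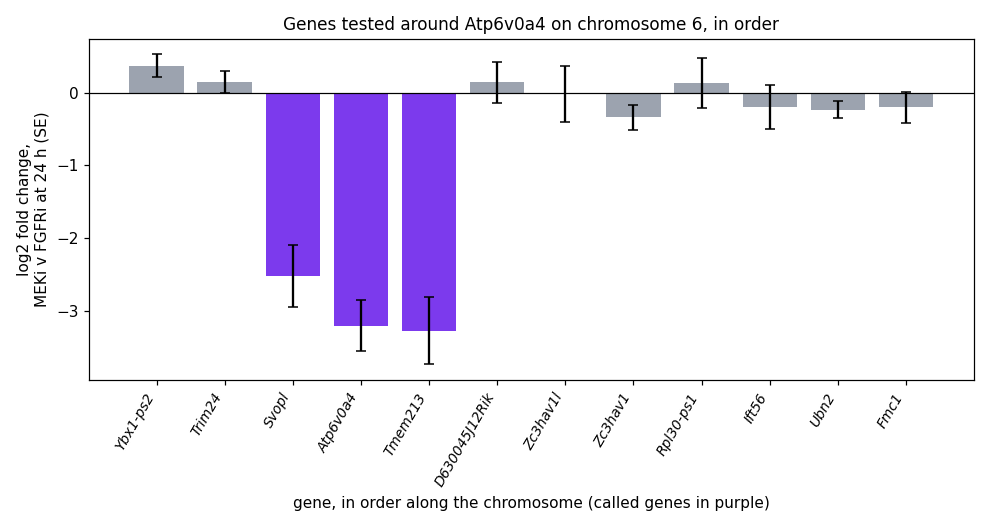
Log2 fold change of MEKi v FGFRi at 24 h (vertical axis, bars are 1 SE) for the 12 genes tested around *Atp6v0a4*, in their order along chromosome 6. *Svopl*, *Atp6v0a4* and *Tmem213* were between -3.27 and -2.51, and the 9 other genes between -0.34 and 0.37.

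The promoters of the 3 neighbours are shown because the genes moved together. *Atp6v0a4* is at chr6:38124537-38124836 on the minus strand, *Tmem213* at chr6:38109103-38109402 on the plus strand and *Svopl* at chr6:38046947-38047246 on the minus strand (RefSeq, GRCm38.p6), each printed 5′ to 3′ on its own strand with matches to the same nuclear receptor motif in capitals. *Svopl* held it at -121, and the windows of *Atp6v0a4* and *Tmem213* did not hold these letters. The ETS motif CCGGAAG (8.86% of all windows, both strands) was in none of the 3, nor was the E-box CACGTG (7.15%).
Atp6v0a4: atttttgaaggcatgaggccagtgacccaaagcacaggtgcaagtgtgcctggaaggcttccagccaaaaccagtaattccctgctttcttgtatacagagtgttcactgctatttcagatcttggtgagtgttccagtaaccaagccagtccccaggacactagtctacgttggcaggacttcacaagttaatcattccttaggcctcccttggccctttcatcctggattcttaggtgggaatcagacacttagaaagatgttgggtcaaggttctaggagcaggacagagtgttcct
Tmem213: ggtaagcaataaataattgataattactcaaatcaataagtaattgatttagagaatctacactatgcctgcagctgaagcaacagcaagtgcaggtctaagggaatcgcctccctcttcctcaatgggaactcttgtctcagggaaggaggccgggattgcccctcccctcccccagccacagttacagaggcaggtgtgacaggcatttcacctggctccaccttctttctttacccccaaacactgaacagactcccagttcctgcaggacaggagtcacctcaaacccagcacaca
Svopl: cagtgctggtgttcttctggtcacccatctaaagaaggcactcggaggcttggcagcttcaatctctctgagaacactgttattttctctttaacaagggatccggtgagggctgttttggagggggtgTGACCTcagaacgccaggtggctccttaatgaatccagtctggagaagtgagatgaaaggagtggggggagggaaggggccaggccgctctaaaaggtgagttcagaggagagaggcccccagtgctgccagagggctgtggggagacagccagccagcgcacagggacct

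For the 6 genes that were DEGs against DMSO with neither inhibitor, DMSO lay between the inhibitors in the fitted values, with a lower level with MEKi and a higher level with FGFRi that did not pass their tests. *Ptk2b*, the calcium-regulated kinase PYK2, was at 4.18, 10.1, 6.35 and 6.57 CPM with MEKi, at 26, 28.5, 29.3 and 23.2 CPM with FGFRi and at 17.6, 21.4, 12.4 and 13 CPM with DMSO. The 3 groups did not overlap each other. MEKi v FGFRi gave a log2 fold change of -2.07 (SE 0.292, FDR 0.00649), made of -1.20 for MEKi v DMSO and 0.88 for FGFRi v DMSO. Without MEKi replicate 1 it was -1.81 (FDR 0.14).

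*Mylip*, an E3 ubiquitin ligase and like *Abca1* an LXR target, was at 12.5, 14.3, 8.47 and 8.21 CPM with MEKi and at 26, 34.2, 40.2 and 54.3 CPM with FGFRi. The DMSO libraries were at 13, 7.81, 13.1 and 24.9 CPM and overlapped those of MEKi. The log2 fold change was -1.84 (SE 0.275, FDR 0.0165). *Synj2*, a lipid phosphatase of the synaptojanin family, was at 20.4, 25, 20.6 and 10.4 CPM with MEKi, at 41.7, 46.4, 55.7 and 61.7 CPM with FGFRi and at 26.4, 33.9, 29.2 and 33.8 CPM with DMSO. Its log2 fold change was -1.51 (SE 0.197, FDR 0.0125), and without MEKi replicate 6, the lowest library, -1.25 (FDR 0.325).

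*Pdzk1*, a scaffold protein that anchors membrane transporters, was at 46, 46.2, 52.4 and 61.9 CPM with MEKi and at 136, 109, 157 and 145 CPM with FGFRi. The DMSO libraries, at 65.8, 169, 67.4 and 92.8 CPM, reached above the highest FGFRi library. The log2 fold change was -1.41 (SE 0.171, FDR 0.0103). *Gm24988* (chr 1, 160703772 to 160703892, minus strand) was at 2.32, 2.12, 1.59 and 1.64 CPM with MEKi and at 9.55, 16.3, 10.3 and 6.86 CPM with FGFRi, and the fitted difference was -2.27 on the log2 scale (SE 0.398, FDR 0.0434). Small nucleolar RNAs have no poly(A) tail, by which these libraries were primed, and which RNA the counts came from was not tested.

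*Spocd1*, which is needed for piRNA-directed DNA methylation in male germ cells, had 0 counts in the 4 MEKi libraries. It was at 2.6, 5.7, 14.9 and 3.16 CPM with FGFRi, from 3, 7, 26 and 6 counts, and at 0.518, 10.4, 0.688 and 1.62 CPM with DMSO. Set against a floor of 3 counts over the MEKi libraries (0.387 CPM), the mean with FGFRi as measured was at least 17.1-fold higher (FDR 0.00744). *Spocd1* averaged 84.8 CPM over pool 2, and 2.63 of the 6.6 CPM with FGFRi was estimated as carry-over. With that taken out the bound was 10.2-fold and the fitted log2 fold change -3.07 (FDR 0.894), and without FGFRi replicate 4 they were 9.88-fold and -3.97 (FDR 0.0673).

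At 72 h the same inhibitors were compared in other libraries and within pool 2. MEKi v FGFRi then had 871 DEGs higher with MEKi (5.71% of genes tested) and 1065 lower (6.98%). Of the 16 genes of 24 h, 8 were DEGs at 72 h, each in the same direction: *Stra8*, *Atp6v0a4*, *Ptk2b*, *Spocd1*, *Dgka*, *Abca1*, *Synj2* and *Mylip*. They are 50% of the DEGs of 24 h and 0.413% of those of 72 h. *Stra8* was at 1160, 770, 818 and 1040 CPM with MEKi and at 102, 185, 98.2 and 136 CPM with FGFRi, a log2 fold change of 2.82 (FDR 1.45e-17). *Spocd1* was at 14.9, 18.3, 22.6 and 22.7 CPM with MEKi and at 150, 143, 212 and 175 CPM with FGFRi (log2 fold change -2.99, FDR 9.05e-18). Neither gene overlapped between the inhibitors. *Stra8* with MEKi, and *Spocd1* with both inhibitors, were at higher levels than at 24 h.

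Among the genes that were higher with FGFRi than DMSO at 24 h, *Abca1* was at 44.7, 55.3, 50.1 and 47.8 CPM with MEKi and at 151, 134, 124 and 106 CPM with FGFRi at 72 h (log2 fold change -1.39, FDR 5.61e-08). Its DMSO libraries of 72 h, at 49.7, 49.3, 49.9 and 53.7 CPM, were close to MEKi as at 24 h, and here all were in the same pool. *Atp6v0a4* was much lower with FGFRi than at 24 h, at 8.63, 8.58, 9.66 and 5.6 CPM, and at 2.98, 1.79, 0.595 and 3.13 CPM with MEKi (log2 fold change -2.54, FDR 0.000591). The DMSO libraries of 72 h were at 4.92, 7.94, 9.99 and 2.65 CPM and overlapped both. FGFRi v DMSO was not tested at 72 h, and the DMSO libraries of the 2 times differ in pool as well as in time. Its neighbours *Tmem213* (-0.98, FDR 0.638) and *Svopl* (-1.36, FDR 0.317) did not pass the test at 72 h.

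The difference between the times was tested for each gene, and 377 genes (2.47%) passed, 5 of the 16 among them. The pool difference at 24 h does not cancel in this test. *Arid5a* was at 20.8, 17.5, 21.4 and 25.1 CPM with MEKi and at 11.8, 15.4, 13.1 and 7.76 CPM with FGFRi at 72 h, so that its log2 fold change went from -1.77 to 0.74, a difference of 2.52 (FDR 1.12e-07). *Lgals3* went from 3.62 to -1.70 (difference -5.31, FDR 0.000115), with 0, 0.537, 0.793 and 1.18 CPM with MEKi and 2.54, 1.01, 4.25 and 4.31 CPM with FGFRi at 72 h. *Nanos2* went from -3.18 to -0.82 (difference 2.36, FDR 0.04995), *Sohlh1* from -4.00 to -0.66 (difference 3.34, FDR 0.0204) and *Gm24988* from -2.27 to 1.11 (difference 3.38, FDR 0.00698). With the carry-over taken out the difference of *Sohlh1* was 1.95 (FDR 0.533) and that of *Nanos2* 2.28 (FDR 0.0549), and neither passed, while the other 3 did. None of these 5 was a DEG between the inhibitors at 72 h.

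**Figure D4:**
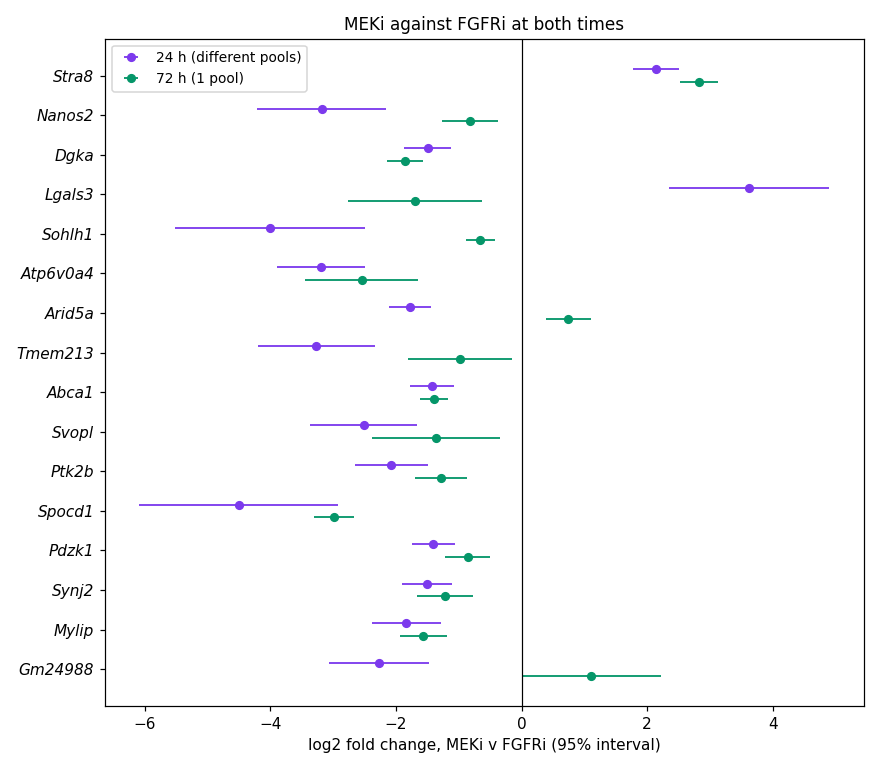
Log2 fold change of MEKi v FGFRi (horizontal axis, bars are 95% intervals) at 24 h, across the pools, and at 72 h, within pool 2, for the 16 genes. *Stra8*, *Spocd1*, *Dgka*, *Abca1* and *Mylip* were on the same side at both times, whereas *Arid5a* went from -1.77 to 0.74 and *Lgals3* from 3.62 to -1.70.

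Gene lists for the pathway and the germ cell programmes are described by their counts and their median log2 fold change of MEKi v FGFRi at 24 h, which for all genes was -0.0015. Of 22 genes tested for FGF receptors and the path from RAS to ERK, 0 were DEGs at an FDR under 0.05 and the median was -0.06. *Fgfr1* averaged 30.4 CPM under MEKi and 28.8 CPM under FGFRi (log2 fold change 0.10), and *Map2k1*, which encodes MEK1, 38.4 and 33.4 CPM (0.18). For 18 of the 22 the 95% interval lay within 2-fold in either direction. *Fgfr4* had 0 counts in all 8 libraries.

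Of 19 targets and feedback genes of ERK tested, 0 were DEGs and the median was 0.17, with 4 higher with MEKi without overlap (*Dusp4*, *Etv1*, *Etv4* and *Egr1*), against 5.26% of all genes. *Egr1*, an early response transcription factor, was at 78, 58.4, 66.7 and 67.3 CPM with MEKi, at 39.9, 37.5, 43 and 42.2 CPM with FGFRi and at 39.9, 40.6, 19.6 and 23.3 CPM with DMSO (0.74, FDR 1), so that unlike *Etv1* and *Etv4* it was not below DMSO with MEKi. *Etv4*, an ETS transcription factor, was at 3.71, 1.06, 1.06 and 1.1 CPM with MEKi, at 0 in the 4 FGFRi libraries and at 32.1, 17.2, 32 and 30.3 CPM with DMSO. Both inhibitors were far below DMSO, with log2 fold changes of -3.96 for MEKi (FDR 1.24e-06) and -6.39 as fitted for FGFRi (FDR 1.9e-09). MEKi v FGFRi as measured was at least 3.48-fold against a floor of 3 counts over the group (FDR 1), with 0.696 of the mean of 1.73 CPM with MEKi estimated as carry-over. *Etv1* was at 18.1, 9.56, 23.3 and 9.31 CPM with MEKi, at 2.6, 3.26, 6.89 and 5.8 CPM with FGFRi and at 57.5, 35.4, 79.8 and 51.9 CPM with DMSO, and its direct log2 fold change of 1.59 (SE 0.446) did not pass the test (FDR 1). The phosphatase gene *Dusp4* was at 29.3, 36.7, 41.3 and 27.4 CPM with MEKi and at 13.9, 22, 14.9 and 18.5 CPM with FGFRi (0.91, FDR 1), and *Spry2* (0.17) and *Dusp6* (0.70) overlapped.

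The study named a set of genes for their change with both inhibitors, a choice made on these samples. Against DMSO, 6 of the 7 tested here were DEGs lower with each inhibitor, and *Calcoco2* was above DMSO instead. Between the inhibitors 0 of the 7 passed the test, the median was 0.74, and 3 (*Etv1*, *Etv4* and *Calcoco2*) were higher with MEKi without overlap, against 5.26% of all genes. *Calcoco2*, an autophagy receptor, was at 60.4, 56.8, 52.9 and 65.2 CPM with MEKi, at 26.9, 35.8, 37.3 and 39 CPM with FGFRi and at 18.7, 9.9, 9.97 and 8.93 CPM with DMSO (0.74, FDR 1). Against DMSO its log2 fold change was 2.44 with MEKi (FDR 3.46e-06) and 1.70 with FGFRi (FDR 0.0507). *Pmaip1*, a pro-apoptotic BH3-only gene, was at 7.89, 9.03, 11.6 and 5.48 CPM with MEKi and at 6.95, 4.89, 7.46 and 12.1 CPM with FGFRi, against 63.8, 64.6, 64.3 and 73.3 CPM with DMSO. The inhibitors overlapped (log2 fold change 0.07, SE 0.365). *Lrrfip1* was at 61.8, 63.2, 94.7 and 46 CPM with MEKi, at 57.3, 57.8, 58 and 55.9 CPM with FGFRi and at 287, 197, 265 and 272 CPM with DMSO (0.15, SE 0.165).

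Of 24 genes of male germ cell differentiation, 3 were DEGs lower with MEKi (*Nanos2*, *Spocd1* and *Sohlh1*) and 0 were higher, with a median of -0.51. Over all genes 0.0918% were DEGs lower and 0.0131% higher. Without overlap 9 were lower and 1, *Sohlh2*, was higher, against 4.48% and 5.26% of all genes. Many of these genes were high in the 72 h libraries of pool 2, and these counts moved with the carry-over. With it taken out 1 of the 24, *Nanos2*, was a DEG (FDR 0.00809), 3 were lower without overlap (3.92% of all genes) and the median was -0.35. Among those that did not pass the test, *Dnmt3l*, the cofactor of de novo DNA methylation, was at 0, 0, 1.06 and 0 CPM with MEKi and at 6.95, 3.26, 7.46 and 4.22 CPM with FGFRi (log2 fold change -3.87, FDR 0.128), of which 2.23 of the mean of 5.47 CPM with FGFRi was estimated as carry-over (-2.96 with it taken out, FDR 1). *Piwil4*, a piRNA-binding protein, was at 6.04, 4.78, 1.59 and 3.29 CPM with MEKi and at 9.55, 8.96, 17.2 and 13.2 CPM with FGFRi (-1.68, FDR 1), with 4.47 of the mean of 12.2 CPM as carry-over (-1.07 with it taken out). The piRNA pathway genes *Tdrd1* (-1.17), *Tdrd5* (-0.68) and *Tdrd9* (-2.15) did not overlap either, each with an FDR of 1. With the carry-over taken out they were at -0.87, -0.67 and -0.72. At 72 h, 14 of the 24 were DEGs lower with MEKi (6.98% of all genes) and 2 higher (5.71%), with *Dnmt3l* (-3.30, FDR 1.88e-16), *Piwil4* (-2.14, FDR 3.55e-15) and *Tdrd1* (-1.27, FDR 1.93e-06) among the lower.

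Of 21 genes of meiotic entry and prophase, *Stra8* was the DEG, against 0.0131% of all genes called higher, and the median was 0.12. In the list 3 genes, *Stra8*, *Rec8* and *Meioc*, were higher with MEKi without overlap, against 5.26% of all genes. *Rec8*, the meiotic cohesin subunit, was at 66.9, 67.5, 63 and 95.8 CPM with MEKi, at 39.9, 24.4, 48.8 and 35.9 CPM with FGFRi and at 31.6, 35.4, 36.4 and 41.9 CPM with DMSO (0.98, SE 0.195, FDR 1). *Meioc*, which prolongs the meiotic programme, was at 12.1, 14.9, 14.8 and 11.5 CPM with MEKi and at 7.81, 2.44, 9.18 and 7.91 CPM with FGFRi (1.01, FDR 1), and at 2.00 with 2.48 of its mean of 6.84 CPM with FGFRi taken out as carry-over. With the carry-over taken out the median of the list was 0.41. *Sycp3*, of the synaptonemal complex, overlapped (-0.21). At 72 h 9 of the 21 were DEGs higher with MEKi (5.71% of all genes) and 1 lower (6.98%). Of 13 retinoic acid genes tested 0 were DEGs at 24 h (median -0.15, or -0.08 with the carry-over taken out).

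The cell cycle list held 0 DEGs among 26 genes at 24 h, with a median of 0.37, and 8 genes were higher with MEKi without overlap, against 5.26% of all genes. *Pcna*, the sliding clamp of DNA replication, was at 290, 263, 291 and 298 CPM with MEKi, at 183, 185, 159 and 205 CPM with FGFRi and at 331, 195, 301 and 257 CPM with DMSO (0.66, SE 0.104, FDR 1). *Ccne1*, cyclin E1, was at 32.5, 32.9, 32.8 and 38.9 CPM with MEKi, at 14.8, 21.2, 13.2 and 15.3 CPM with FGFRi and at 24.4, 17.2, 32.3 and 22.7 CPM with DMSO (1.10, SE 0.264, FDR 1). At 72 h, 12 of the 26 were DEGs higher with MEKi (5.71% of all genes) and 0 lower, with *Ccne1* at 2.55 (FDR 7.54e-07) and *Pcna* at 1.14 (FDR 5.52e-05).

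Pluripotency and germ cell specification genes (22 tested, median -0.16), NODAL genes (12, median -0.01), BMP targets (11, median 0.37) and the BCL2 family (12, median -0.02) had 0 DEGs at 24 h. With the carry-over taken out the median of the BMP targets was 0.19. Of the 22 pluripotency and specification genes, 5 (*Nanog*, *Esrrb*, *Dppa3*, *Prdm14* and *Prdm1*) were lower with MEKi without overlap, against 4.48% of all genes. *Prdm1*, a repressor that sets germ cell fate, had a mean of 37.7 v 61.5 CPM (-0.72, FDR 1), and *Nanog* of 79.3 v 111 CPM (-0.47, FDR 1). The NODAL inhibitor and target *Lefty1* averaged 157 CPM under MEKi and 196 CPM under FGFRi (-0.31) at 24 h and was a DEG in the opposite direction at 72 h (3.42, FDR 8.89e-12). For *Lefty1* the difference between the times passed its own test (3.73, FDR 2.34e-10). Of 9 female germ cell transcription factors, *Sohlh1* was the DEG, against 0.0918% of all genes called lower, and it was not a DEG with the carry-over taken out. Without overlap 1 of the 9 was higher and 2 were lower, against 5.26% and 4.48% of all genes. *Irx3* was lower with MEKi without overlap, at 4.18, 6.91, 3.7 and 6.57 CPM against 14.8, 9.78, 12.6 and 10 CPM with FGFRi (-1.16, FDR 1), and was a DEG in FGFRi v DMSO across the pools (2.57, FDR 0.0497). *Irx5* was higher with MEKi without overlap, at 2.12 to 3.29 CPM against 0 to 1.58 CPM (1.59, FDR 1).

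Of 12 genes of cholesterol synthesis and LXR, *Abca1* and *Mylip* were DEGs lower with MEKi, and the LXR target *Abcg1* was lower without overlap at 98.4, 123, 116 and 130 CPM with MEKi and 269, 287, 243 and 167 CPM with FGFRi (-1.05, SE 0.157, FDR 0.628). Its DMSO libraries, at 245, 252, 205 and 202 CPM, overlapped those of FGFRi, unlike *Abca1*, whose DMSO libraries overlapped those of MEKi. *Hmgcs1*, *Sqle*, *Insig1* and *Idi1*, genes of cholesterol synthesis and its control, were higher with MEKi without overlap. Over the 12 genes 6 were higher and 3 lower without overlap, against 5.26% and 4.48% of all genes, and 0.0918% of all genes were DEGs lower with MEKi. *Hmgcs1*, an enzyme of early cholesterol synthesis, was at 283, 256, 303 and 275 CPM with MEKi, at 189, 183, 189 and 201 CPM with FGFRi and at 272, 257, 229 and 276 CPM with DMSO (0.55, SE 0.113, FDR 1). *Idi1* was at 21.4, 25.5, 27 and 26.3 CPM with MEKi, at 12.2, 13, 13.8 and 12.7 CPM with FGFRi and at 16.1, 18.2, 18.6 and 23.8 CPM with DMSO (0.90, FDR 1). In these 2 genes the FGFRi libraries were below all DMSO libraries. At 72 h, within pool 2, *Sqle* was a DEG higher with MEKi (1.25, FDR 4.53e-05), and *Abca1* and *Mylip* were again lower.

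**Figure D5:**
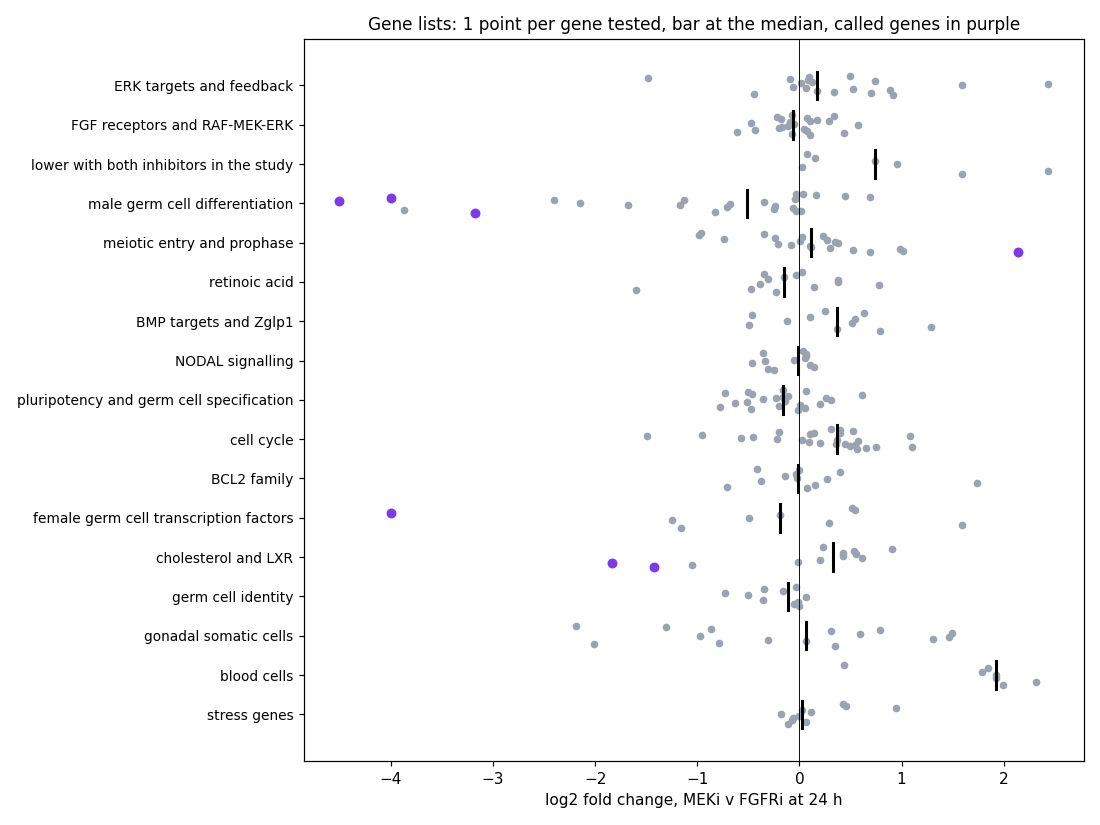
Log2 fold change of MEKi v FGFRi at 24 h (horizontal axis) of the genes tested in each list (rows), with 1 point per gene, a bar at the median and DEGs in purple. Most lists lay around 0, the blood cell list had a median of 1.92, and the DEGs were in the male, meiotic, female transcription factor and cholesterol lists.

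The germ cell label was checked on 10 germ cell markers, each present in both groups. *Ddx4* averaged 218 CPM under MEKi and 219 CPM under FGFRi, and *Dazl* 1640 and 1710. The list held 0 DEGs, with a median of -0.11. Without overlap 2 of the 10 were lower with MEKi, against 4.48% of all genes, and 0 were higher. The 2 were *Dppa3* (2110 and 2730 CPM) and *Prdm1* (37.7 and 61.5 CPM). Together the 10 took 0.454% (SD 0.00296) of counts with MEKi and 0.525% (SD 0.039) with FGFRi. *Dppa3* was the highest of them and differed most in CPM, so this share rests largely on *Dppa3*. Of 22 markers of gonadal somatic cells, 20 had a count, and *Amh* and *Insl3*, of Sertoli and Leydig cells, had 0. They took 0.0152% (SD 0.00235) with MEKi and 0.0106% (SD 0.0014) with FGFRi, with 0 DEGs among 15 tested. Without overlap 3 of the 15 (20%, against 5.26% of all genes) were higher with MEKi, namely *Sox9*, *Ptgds* and *Pecam1*, and *Foxl2* was lower (6.67%, against 4.48%). *Pecam1*, an endothelial marker which foetal germ cells also express, was the highest of the list at 85 and 48.6 CPM (0.79, FDR 1). It held 660 counts over the MEKi libraries and 293 over the FGFRi libraries, and the next member, *Sox9*, held 128 and 76. The share of the list therefore rests largely on *Pecam1*. The Sertoli cell factor *Sox9* was at 14.9, 20.7, 14.3 and 16.4 CPM with MEKi and at 13.9, 11.4, 12.6 and 12.7 CPM with FGFRi (0.35, FDR 1). *Ptgds*, a prostaglandin synthase of Sertoli cells, was at 10.2, 15.4, 12.2 and 15.3 CPM against 4.34, 3.26, 4.59 and 8.44 CPM (1.31, FDR 1). *Foxl2*, the granulosa cell factor, was at 0.464, 0.531, 0.529 and 0 CPM against 3.47, 3.26, 1.72 and 1.58 CPM (-2.19, FDR 1). The part of somatic cells in the results was not tested.

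Blood markers were higher with MEKi. The 13 took 0.031% (0.0199 to 0.0512) of counts with MEKi, 0.00751% (0.00616 to 0.00863) with FGFRi and 0.009% (0.00404 to 0.0137) with DMSO. Of 7 tested, 6 did not overlap, against 5.26% of all genes, and 0 were DEGs. In MEKi v DMSO, within pool 1, 3 were DEGs higher with MEKi (*Hba-a2*, *Hba-x* and *Hbb-y*), of 8 higher DEGs in that comparison. *Hba-a2*, an alpha globin, was at 44.1, 45.2, 29.1 and 75 CPM with MEKi, at 7.81, 6.52, 10.9 and 10.5 CPM with FGFRi and at 21.8, 22.9, 8.25 and 8.12 CPM with DMSO (2.32, SE 0.47, FDR 0.147). The shares of germ cell, somatic and blood markers and of long non-coding RNAs each gave a two-sided exact permutation p of 0.02857, the smallest that 4 against 4 libraries allow, and 0.05714 after adjustment over 8 shares. Of 11 stress genes tested 0 were DEGs (median 0.03). The part of red cell RNA in the other differences was not tested.

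The 10 genes next in FDR did not pass the test. After *Oacyl*, they include *Nab2*, a corepressor of the EGR factors that is itself induced by ERK signalling, at 0.464, 1.06, 1.06 and 2.19 CPM with MEKi, 5.21, 8.15, 13.8 and 8.97 CPM with FGFRi and 9.33, 28.1, 5.16 and 13 CPM with DMSO (-2.86, FDR 0.115). *Nab2* was a DEG in MEKi v DMSO (-3.15, FDR 0.00847) and between the inhibitors at 72 h (-1.98, FDR 5.33e-09). *Prtg*, a cell surface protein of the early embryo, was at 101, 130, 129 and 151 CPM with MEKi, 57.3, 56.2, 54.5 and 59.1 CPM with FGFRi and 120, 137, 101 and 116 CPM with DMSO (1.13, SE 0.143, FDR 0.126). The FGFRi libraries of *Prtg* were below all others, and at 72 h it was a DEG at 1.25 (FDR 5.03e-06). *Dab1*, an adaptor of reelin signalling, was at 22.8, 17, 38.6 and 20.8 CPM with MEKi, 3.47, 4.89, 14.3 and 4.75 CPM with FGFRi and 28.5, 24, 22 and 26.2 CPM with DMSO (1.88, FDR 0.143). The others were *Spmip5* (-2.91), *Vwf* (-3.84, or -3.27 with 1.81 of its 6.65 CPM with FGFRi taken out as carry-over), *Dnmt3l*, *Fam3d* (-1.98), *Slc6a6* (-1.03) and *Plekhm2* (2.85, with 0.114 of its mean of 0.132 CPM with FGFRi as carry-over), with FDRs from 0.115 to 0.147.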

How the data were processed

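Germ cell RNA was measured by 3′ sequencing with a sample index and a unique molecular identifier (UMI) added at the poly(A) tail. The authors deposited whole-number counts per gene, 1 column per library, made with scPipe and Rsubread on GRCm39 with reads of the same UMI collapsed to 1 count, and neither normalised nor filtered. The annotation release was not given in the sources used here. Genes were matched by Ensembl identifier to GENCODE M39, which left 2031 genes (1.05% of counts) without a symbol. Levels are CPM over TMM-scaled library sizes and were not divided by transcript length.

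As in the methods of the study, filterByExpr of edgeR, with its minimum count of 10 and minimum total of 15, kept 15252 genes holding 99.2% of all counts, which were tested with voomWithQualityWeights and treat against a fold of 1.5 in limma 3.58.1 with edgeR 4.0.16 and R 4.3.3, with 1 mean for each of 10 groups over all 40 libraries and Benjamini-Hochberg adjustment. The p-values measure the spread between these libraries, and floors cover counting error only. Scripts were tested on simulated data.

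Groups follow the library names in the labels. The members and lists were chosen with earlier results of these data known. Named were the DEGs, the 10 genes next in FDR, those with the largest fold at 5 CPM or more without overlap, list members and genes called at both times. Alternatives were edgeR's glmTreat, DESeq2 1.42.0, eBayes with an observed fold, no filter, other normalisation and weights, fewer libraries, a replicate block, leaving out each library and, chosen after seeing the data, taking out the pool carry-over. Some list members are not reported here.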

Additional observations from a re-analysis of the deposited data

Results flagged for a closer look

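For 5 of the 16 genes the MEKi v FGFRi difference at 72 h differed from that at 24 h by a test of the difference itself (limma treat, FDR under 0.05). On the log2 scale the difference at 72 h less that at 24 h was 2.52 for *Arid5a*, 2.36 for *Nanos2*, -5.31 for *Lgals3*, 3.34 for *Sohlh1* and 3.38 for *Gm24988*. With the pool carry-over taken out, an alternative chosen after seeing the data, *Sohlh1* (1.95, FDR 0.533) and *Nanos2* (2.28, FDR 0.0549) no longer passed. The 24 h groups were in different pools and the 72 h groups in the same pool, and the time and the pool cannot be told apart in these values.

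Among 79 groups of 4 libraries of the 16 genes, 4 held a library far from the others of its group, and chance gives about 1 in 20. *Spocd1* was at 10.4 CPM in DMSO replicate 3 at 24 h and at 0.518 to 1.62 CPM in the others. *Lgals3* was at 0.574 CPM, from 1 count, in FGFRi replicate 4 at 24 h and at 0 in the others. *Mylip* was at 8.93 CPM in MEKi replicate 2 at 72 h and at 13.9 to 14.5 CPM in the others. *Svopl* was at 0.757 CPM in FGFRi replicate 4 at 72 h and at 3.88 to 4.4 CPM in the others.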

How the results depend on the processing

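The number of DEGs of MEKi v FGFRi at 24 h, 16 as reported, was 27 with edgeR's glmTreat, 435 with eBayes and an observed fold of 1.5, 42 without a filter on low counts, 12 with DESeq2 and 14 with the pool carry-over taken out. The same alternatives gave 39 and 556 for MEKi v DMSO with glmTreat and eBayes, 65 and 630 for FGFRi v DMSO, 5266 with eBayes for MEKi v FGFRi at 72 h, and 707 and 3011 for the difference between the times. Without the filter the median log2 fold change of all genes was -0.407, and 9 genes were higher and 33 lower. The direction of each of the 16 genes was the same under every alternative that gave it a value.

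Replicates 1 and 4 are the only numbers that both 24 h inhibitor groups carry. Their deviations from the group means correlated at 0.0525 and 0.0772, and those of libraries with unlike numbers at -0.0596 to 0.075. These values do not settle whether equal numbers pair the libraries, and the main fit did not pair them. With the replicate block the direct comparison had 7 DEGs, 6 of them among the 16. The 6 were *Stra8*, *Atp6v0a4*, *Arid5a*, *Tmem213*, *Nanos2* and *Sohlh1*, and the others of the 16 were lost. MEKi v DMSO had 15 DEGs with the block.

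Leaving out each library in turn gave 7 to 15 DEGs for the direct comparison, with 7 without MEKi replicate 1, 8 without MEKi replicate 6, and 9 without FGFRi replicate 4 or FGFRi replicate 5. The ranges were 19 to 31 for MEKi v DMSO, 24 to 42 for FGFRi v DMSO, 1511 to 2016 for 72 h and 245 to 426 for the difference between the times. FGFRi v DMSO had 24 DEGs without DMSO replicate 5 and 25 without FGFRi replicate 4, and the difference between the times had 245 without 72 h FGFRi replicate 2. *Atp6v0a4*, *Arid5a* and *Tmem213* were DEGs under every setting and with every one of the 8 libraries left out. *Nanos2* was lost without MEKi replicate 1, and 12 genes were lost under some setting, *Stra8* among them without the filter (2.13, FDR 0.0777). The causes were not tested. Depth limits genes under a few CPM, such as *Spocd1*, *Lgals3* and *Sohlh1*, whose values rest on few counts, and the pool limits every value that sets 24 h FGFRi against pool 1.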
